A study of Mus musculus with 2 samples.

Results

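The cell cycle module described here is a set of 38 genes, all present among the 13774 rows of the count table: 10 genes of DNA replication (the S list: Mcm2 to Mcm7, Pcna, Tyms, Rrm1 and Rrm2) and 28 genes of chromosome condensation and mitosis (the G2M list). The members were taken by name. Their counts come from 2 mouse libraries of single cells, 1 per group, made with the 10x Genomics 3' kit, in which each unique molecular identifier (UMI) stands for 1 captured transcript. Both libraries were sorted for live ZSGreen-positive cells from female C57BL6/J mice that were 8 weeks old and carried Cdh5Cre-ERT2:ZSGreenl/s/l. In these mice tamoxifen switches on ZSGreen through the endothelial Cdh5 promoter. EO771 cells, from a C57BL/6 mouse mammary cancer, had been placed in the mammary fat pad about 3 weeks earlier; NEC cells came from normal mammary gland and TEC cells from the tumors. No other treatment was given, and whether animals were pooled is not given in the sources used here.

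Dividing cells copy their DNA in S phase and then separate the copies in mitosis. The 6 Mcm proteins form the helicase that opens the DNA, and transcripts of the replication genes build up around the start of S phase under E2F factors. Transcripts of the mitotic genes build up later, in G2 and M phase, through CHR elements and CCAAT boxes in their promoters. Some genes of the G2M list, such as the histone variant gene H2afz, are also transcribed in cells that do not divide.

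The promoters show this division in part. RefSeq promoter windows (GRCm38.p6, 250 bases before to 50 after a gene's start) matched 32 of the 38 members, 1 of them (H2afz) by a synonym; Mcm4, Ccna2, Stmn1, Tpx2, Aurkb and Smc4 were not matched. The E2F site was searched as TTTGGCGC, TTTCCCGC, TTTGCCGC or TTTCGCGC, the CHR element as TTTGAA or TTCGAA and the CCAAT box as CCAAT, each on both strands; matches that overlap were counted separately. An E2F site stood in 4 of 9 S windows (Mcm3, Mcm5, Mcm6 and Mcm7) and in 1 of 23 G2M windows (Cdk1), against 2.26% of all 32851 windows. Mcm7 had 2 windows, and the window with more E2F sites, then more CCAAT boxes, was used. No such choice was made among all windows. A CHR element stood in 17 of 23 G2M windows and in 2 of 9 S windows (Mcm2 and Mcm7), against 19.2% of all windows. A CHR element together with 2 or more CCAAT boxes stood in 13 of 23 G2M windows and in 1 of 9 S windows, against 2.31% of all windows. The E2F core GCGGGAA, whose reverse lies inside TTTCCCGC, stood in 3 of 9 S windows, 0 of 23 G2M windows and 4.6% of all windows. A match describes letters in a window, not a bound site.

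A pair of helicase genes, Mcm5 (chr8:75109259-75109508, plus strand) and Mcm6 (chr1:128359706-128359955, minus strand), is shown as the E2F type, with the E2F sites in capitals; in each, 2 sites overlap on opposite strands.
Mcm5: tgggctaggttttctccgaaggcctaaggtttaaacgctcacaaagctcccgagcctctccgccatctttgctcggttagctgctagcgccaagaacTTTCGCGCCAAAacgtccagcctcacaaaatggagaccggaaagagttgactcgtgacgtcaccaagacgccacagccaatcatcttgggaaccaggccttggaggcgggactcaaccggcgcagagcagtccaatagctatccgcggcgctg
Mcm6: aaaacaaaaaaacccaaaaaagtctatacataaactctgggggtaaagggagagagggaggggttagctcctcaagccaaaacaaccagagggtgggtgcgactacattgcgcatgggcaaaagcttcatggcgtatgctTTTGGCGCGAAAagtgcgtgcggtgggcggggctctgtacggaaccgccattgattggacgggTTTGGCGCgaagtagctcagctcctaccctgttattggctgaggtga

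For the mitotic type, the genes for cyclin B2 (Ccnb2, chr9:70421555-70421804), its kinase Cdk1 (chr10:69352939-69353162) and the DNA untangling enzyme topoisomerase II alpha (Top2a, chr11:99024190-99024439) are shown, all on the minus strand, with CHR elements and CCAAT boxes in capitals. Each sequence runs 5′ to 3′ and ends before the annotated gene.
Ccnb2: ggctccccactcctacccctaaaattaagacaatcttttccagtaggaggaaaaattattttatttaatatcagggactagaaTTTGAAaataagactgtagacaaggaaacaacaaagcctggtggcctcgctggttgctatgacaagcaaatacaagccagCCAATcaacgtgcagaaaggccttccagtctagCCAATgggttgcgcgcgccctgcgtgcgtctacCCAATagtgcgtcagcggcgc
Cdk1: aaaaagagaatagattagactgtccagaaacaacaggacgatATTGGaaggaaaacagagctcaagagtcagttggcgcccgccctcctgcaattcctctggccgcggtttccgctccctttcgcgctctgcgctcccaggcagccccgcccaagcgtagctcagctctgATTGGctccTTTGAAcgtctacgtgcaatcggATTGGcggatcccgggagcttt
Top2a: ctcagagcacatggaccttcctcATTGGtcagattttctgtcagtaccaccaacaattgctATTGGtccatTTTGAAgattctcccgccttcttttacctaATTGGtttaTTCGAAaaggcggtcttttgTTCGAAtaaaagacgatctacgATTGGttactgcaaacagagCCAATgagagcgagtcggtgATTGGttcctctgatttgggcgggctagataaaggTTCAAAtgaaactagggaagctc

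Cells were grouped by clusters built without the members and without the other listed cell cycle genes, so the genes described did not make the groups. Leukocytes made up most of the cells counted here in both libraries, against the labelled cell type: a cluster with 9 endothelial markers held 3 NEC and 6 TEC cells. Whether these counts cover all sorted cells was not tested, so they do not describe what the sort yielded. Cluster 5 held 199 TEC cells and 1 NEC cell, met no class and is called Rhox5 cells after its leading gene, a homeobox gene at 644.4 CPM (UMIs per 1000000 UMIs) there and listed at 0 in NEC. These cells held 75.5 CPM of 11 endothelial markers, against 4638 CPM in the 6 TEC endothelial-like cells, and 147.0 CPM of 9 epithelial markers, 5 of which were at 0. The other TEC groups were 51 T or NK-like cells, 155 dendritic-like cells, and macrophage or monocyte-like cells with (87) and without (488) a UMI of Cd3e, Cd3d or Cd3g, the signalling chains of the T cell receptor. NEC held 673 T or NK-like, 54 dendritic-like, 286 macrophage or monocyte-like (9 with a Cd3 UMI) and 673 B or plasma-like cells. Median depth was 40004 UMIs in Rhox5 cells, 7394 to 9640 in the other TEC groups and 1750 to 4666 in these NEC groups. The shallowest kept cell had 1157 UMIs in NEC and 6376 in TEC, and 2 cell barcodes occur in both libraries. With 1 library per group no difference has a replicate check and no p-value is given; the 95% intervals cover counting error only.

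The 2 lists did not rank the groups alike. UMIs were summed over the cells of a group and divided by all UMIs of the group. The S list stood at 700.7 CPM (635.3 to 770.9) in TEC T or NK-like cells and 494.8 CPM (480.6 to 509.4) in Rhox5 cells. It stood at 186.7 CPM (159.6 to 217.1) in TEC macrophages with Cd3 and 152.3 CPM (133.0 to 173.7) in TEC dendritic-like cells. TEC macrophages without Cd3 held 86.6 CPM (77.7 to 96.2) of it. T or NK-like and Rhox5 cells were thus the highest of these groups, and the intervals of the macrophages with Cd3 and the dendritic-like cells overlap. In NEC the S list was at 207.7 CPM (188.3 to 228.4) in T or NK-like, 176.8 (155.4 to 200.4) in B or plasma-like, 83.1 (67.02 to 102.0) in macrophage or monocyte-like and 56.7 (31.7 to 93.5) in dendritic-like cells.

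The G2M list gave another order, with 6 genes carrying most of it. Its sum was 8371 CPM in TEC T or NK-like cells, 4798 CPM in Rhox5 cells and 4549 CPM in TEC dendritic-like cells. H2afz, which encodes the histone variant H2A.Z, held 65.6% of the G2M UMIs in TEC dendritic-like cells and 24.6% in Rhox5 cells. It reached 2984 CPM in TEC and 2777 CPM in NEC dendritic-like cells, the highest of these cell groups. Within the TEC T or NK-like group, the 21 cells of cluster 9 held 3029 CPM of it. In NEC B or plasma-like cells it was at only 267.0 CPM. Hmgb2, a DNA-bending protein gene, was at 955.4 CPM in the NEC B or plasma-like cells, above its 493.3 CPM in Rhox5 cells. Smc4, a core subunit of condensin, was at 227.3 CPM in NEC T or NK-like cells, against 180.7 CPM in Rhox5 cells. High levels of these genes were therefore present in groups where most mitotic genes were near 0.

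**Figure D1:**
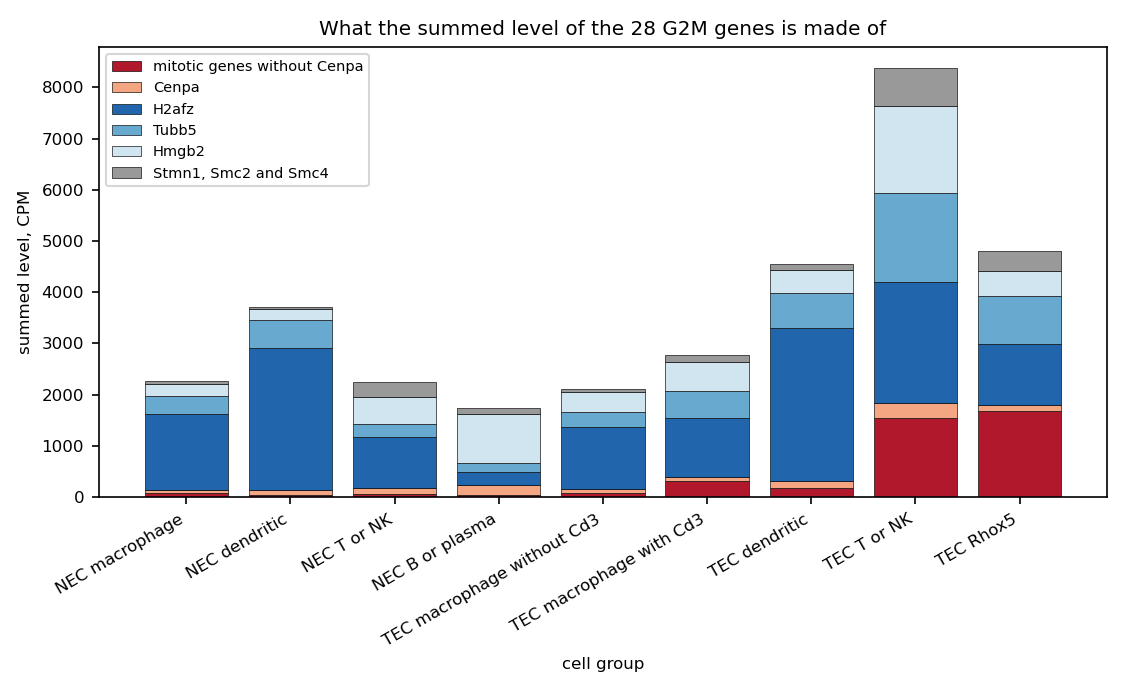
Stacked bars of the summed level (CPM, axis from 0) of the 28 G2M genes in 9 cell groups, split into 21 mitotic genes, Cenpa, H2afz, Tubb5, Hmgb2 and the remaining 3 broadly expressed genes. Dendritic-like and Rhox5 cells of TEC have like totals, but the 21 mitotic genes (red) stand at 172.9 CPM in the first and 1674 CPM in the second.

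Without H2afz, Hmgb2, Tubb5 (beta-tubulin), Stmn1 (stathmin, a microtubule regulator) and the condensin genes Smc2 and Smc4, 22 mitotic genes remain. Their sum was 1844 CPM (1737 to 1956) in TEC T or NK-like cells and 1807 CPM (1780 to 1835) in Rhox5 cells, overlapping intervals. It was 401.0 CPM (360.8 to 444.5) in TEC macrophages with Cd3, 320.5 CPM (292.0 to 350.9) in TEC dendritic-like cells and 156.3 CPM (144.3 to 169.1) in TEC macrophages without Cd3. The NEC groups lay between 136.0 CPM (dendritic-like) and 231.6 CPM (B or plasma-like). Cenpa, the centromeric histone H3 variant gene (chromosome 5, 30666777 to 30674830), made up much of the NEC values: it was at 67.8 CPM of the 146.4 CPM in macrophage or monocyte-like cells, at 199.2 CPM of the 231.6 CPM in B or plasma-like cells and at 122.2 CPM in T or NK-like cells. Without it, a choice made after its values were seen, the 21 other genes summed to 32.5 to 78.6 CPM in the 4 NEC groups, to 73.0 CPM in TEC macrophages without Cd3, to 1546 CPM in TEC T or NK-like cells and to 1674 CPM in Rhox5 cells.

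**Figure D2:**
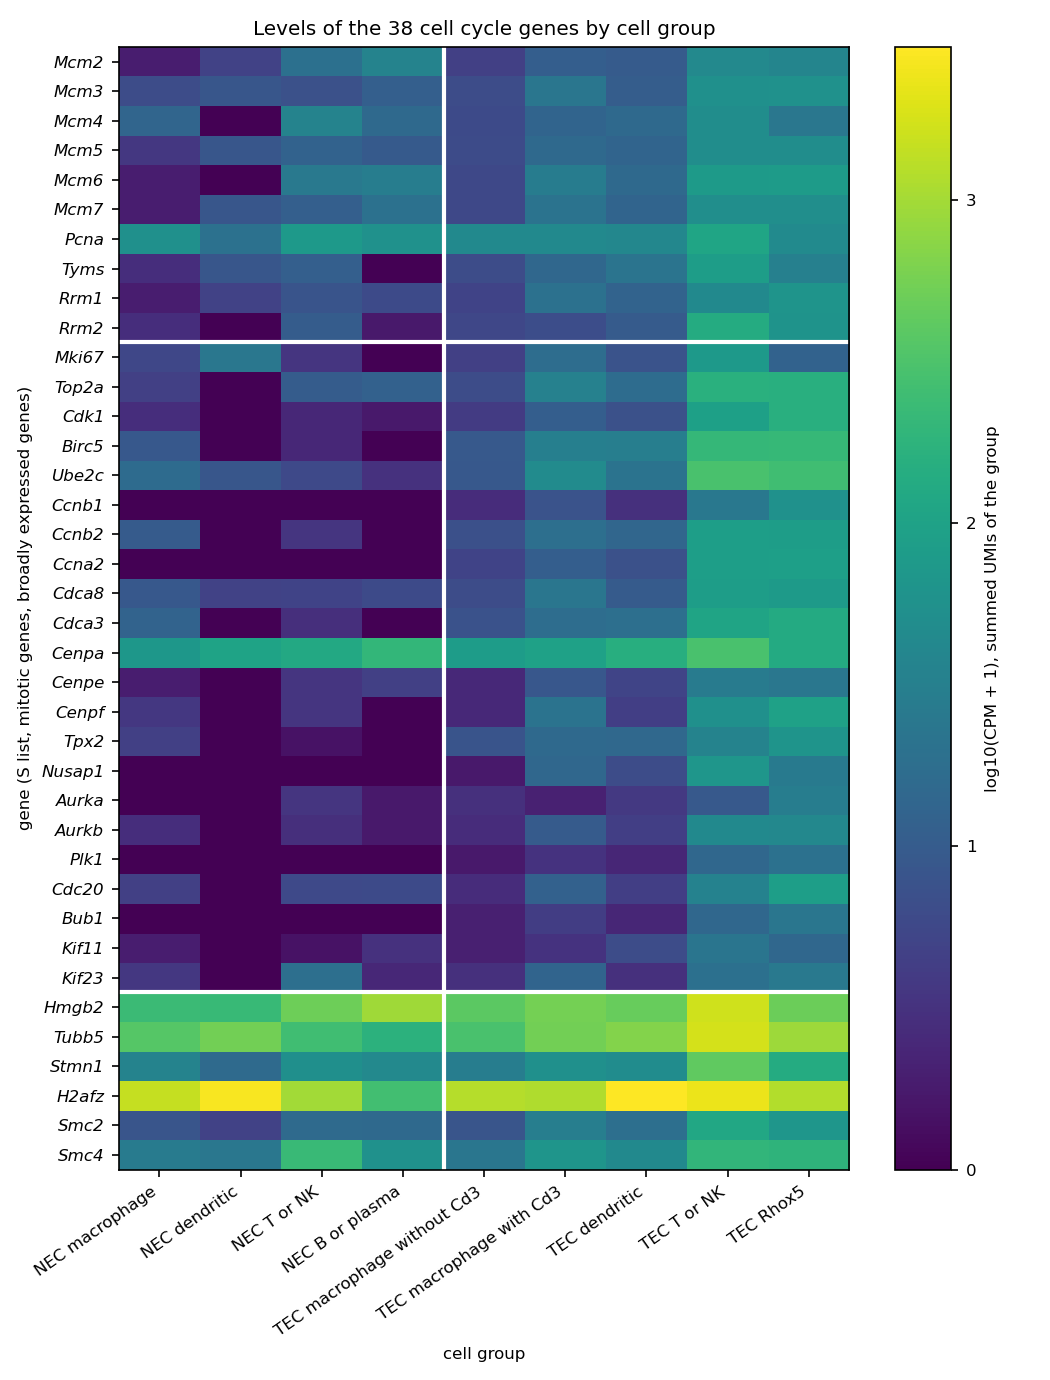
Heat map of the level of each of the 38 genes (rows) in 9 cell groups (columns), colored by log10(CPM + 1) of the summed UMIs; white lines part the S list, the 22 mitotic genes and the 6 broadly expressed genes, and NEC from TEC. The mitotic rows other than Cenpa are brightest in the TEC T or NK and Rhox5 columns, while Cenpa, Pcna, Hmgb2, Tubb5 and H2afz are present in every column.

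Rhox5 cells were set against the macrophages without Cd3 of the same library, which compares cells of 1 library and not conditions. A gene with 50 or more UMIs over both sums counted as higher or lower when the groups differed 2-fold or more and 1 lay outside the interval. In Rhox5 cells 34 of the 38 members were called higher, 0 lower and 4 neither, and none was under the minimum. The 21 mitotic genes without Cenpa had 15407 UMIs in Rhox5 cells and 292 in the macrophages. The 9 S genes without Pcna had 4145 and 171. These genes reached the minimum with their Rhox5 UMIs, so a call of lower was unlikely for them, and ratios to the macrophages rest on few UMIs. Over all 9370 genes compared, 36.2% were called higher and 18.2% lower. The median log2 ratio was 3.77 over the members and 0.49 over all genes compared. The 4 exceptions were Pcna, the sliding clamp of DNA polymerase (ratio 1.01, 0.85 to 1.22), H2afz (0.97, 0.94 to 1.01), Hmgb2 (1.26, 1.19 to 1.34) and Cenpa (1.60, 1.41 to 1.81).

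The replication genes of Rhox5 cells stood well above those of the macrophages. The helicase genes lay between 22.5 CPM (Mcm4) and 78.7 CPM (Mcm6, chromosome 1, 128331590 to 128359664), against 3.5 to 5.50 CPM in the macrophages. Ratios of the 6 ranged from 4.50 for Mcm4 (2.84 to 7.52) to 16.6 for Mcm6 (10.5 to 27.7). Ribonucleotide reductase makes the deoxynucleotides for replication: its genes Rrm1 and Rrm2 were at 62.8 and 60.2 CPM, against 4.0 and 4.50 CPM. Tyms, which encodes thymidylate synthase, was at 31.5 CPM, against 5.50 CPM.

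Among the mitotic genes the largest ratios belonged to Cenpf, a kinetochore gene, at 96.5 CPM against 1.5 CPM (64.3-fold, 29.4 to 176), and Cdk1, the main mitotic kinase, at 156.3 CPM against 3.0 CPM (52.1-fold, 29.7 to 101). Birc5, Cdca8 and Aurkb encode parts of the chromosomal passenger complex and were at 210.7, 76.5 and 40.6 CPM, against 8.26, 5.50 and 1.75 CPM. The cyclin genes Ccnb1, Ccnb2 and Ccna2 were at 55.6, 86.2 and 89.1 CPM, against 1.75, 6.00 and 4.0 CPM. Ube2c and Cdc20 serve the anaphase-promoting complex, which marks mitotic proteins for destruction; they were at 258.9 and 86.5 CPM, against 8.00 and 1.75 CPM. Top2a was at 156.2 CPM against 5.50 CPM. The spindle genes Tpx2, Nusap1, Kif11 and Kif23 had ratios of 8.84, 33.7, 13.4 and 12.2, the kinase genes Aurka, Plk1 and Bub1 14.2, 24.8 and 22.3, the kinetochore motor gene Cenpe 15.4 and Cdca3, which promotes entry into mitosis, 20.3. Mki67, the gene of the proliferation antigen Ki-67, was the lowest mitotic ratio past the rule, 3.29 (1.88 to 6.22). Smc2 and Smc4 were 9.02-fold and 8.21-fold higher, Stmn1 4.68-fold and Tubb5 3.16-fold. Of the other listed cell cycle genes, 32 of 37 S genes and 45 of 52 G2M genes were called higher, with 36 and 50 that had enough UMIs, and 0 and 1 were called lower. Of 12 CDK inhibitor and quiescence genes 9 had enough UMIs. Of these 2 were called higher, among them Klf2 (6.65-fold), and 4 lower, among them Cdkn1a (0.20) and Btg1 (0.15). Opposite-strand coding genes overlap 6 members (Mcm7, Ube2c, Ccna2, Cdca8, Nusap1 and Cdc20), and whether counting used strand is not given in the sources used here.

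Rhox5 cells and TEC T or NK-like cells reached a like mitotic sum with different genes. Mki67 was at 11.5 CPM (9.43 to 13.9) in Rhox5 cells and 73.2 CPM (53.2 to 98.3) in T or NK-like cells. Rrm2 (60.2 against 138.1 CPM), Tyms (31.5 against 84.9 CPM), Pcna (44.3 against 109.8 CPM), Nusap1 (25.3 against 64.9 CPM) and Stmn1 (134.8 against 416.1 CPM) were also lower in Rhox5 cells, with intervals that do not overlap. Cdc20 (86.5 against 33.3 CPM), Ccnb1 (55.6 against 23.3 CPM), Cenpf (96.5 against 54.9 CPM), Cdk1 (156.3 against 93.2 CPM) and Aurka (28.4 against 8.32 CPM) were higher in Rhox5 cells, again without overlap. These genes were picked for their difference, so the values are a description. Top2a, Birc5, Ccnb2 and Ccna2 were nearly level, at 156.2 and 158.1, 210.7 and 204.7, 86.2 and 86.5, and 89.1 and 88.2 CPM.

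Single Rhox5 cells differed widely. The 22 mitotic genes had a lower quartile of 207.3 CPM, a median of 1198 CPM and an upper quartile of 2394 CPM over the 199 cells. The 20 cells with the most UMIs of the list held 44.3% of them. The 40 cells with the highest level of the 21 genes without Cenpa held 3753 CPM of these, 420.0 CPM of the S list and 4074 CPM of the 6 broadly expressed genes. The 40 with the lowest level held 66.3, 155.2 and 1376 CPM. Over the 199 cells, all of 1 library, the 21-gene level and the S level had a Spearman rho of 0.40. The levels also moved with depth, with a rho of 0.42 for the S list and 0.29 for the 21 genes: the deepest 66 cells had a median of 1799 CPM of the 21 genes and the shallowest 67 a median of 432.2 CPM. What depth contributes was not tested.

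**Figure D3:**
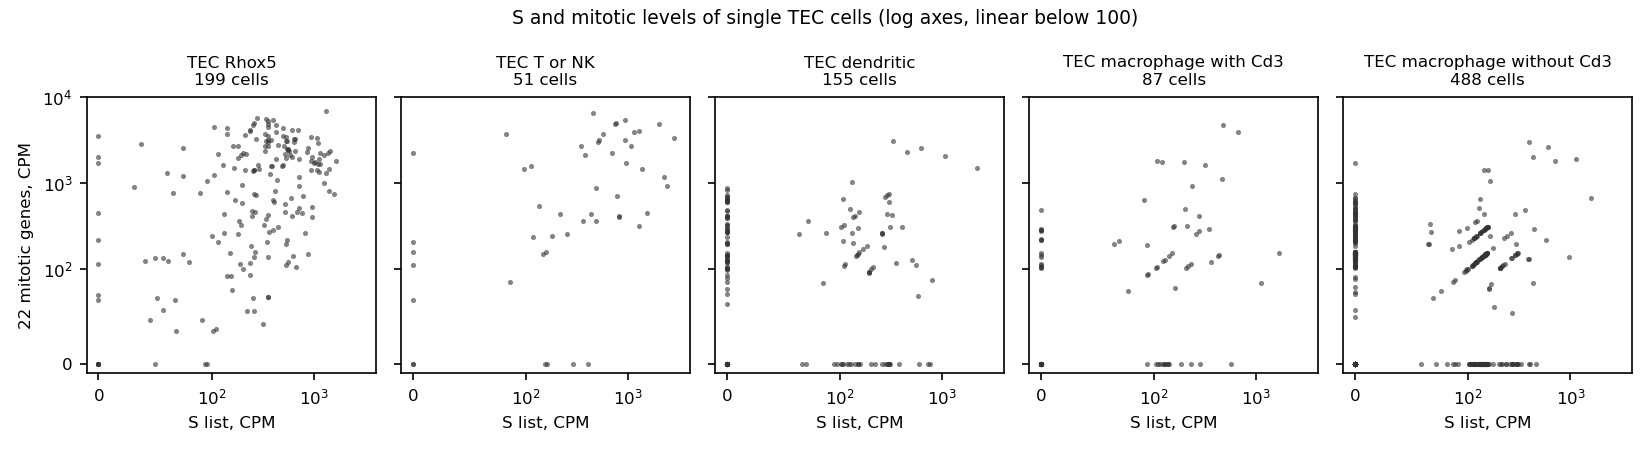
Each point is 1 TEC cell, placed by its summed S list (x) and its summed 22 mitotic genes (y), both in CPM on log axes that are linear below 100, in 5 cell groups. Rhox5 and T or NK-like cells spread far up the mitotic axis, and in the other 3 groups a few cells do so while most lie near 0 or at the level of 1 UMI.

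Gene by gene, the 2 lists also parted within Rhox5 cells. Each member was correlated over the 199 cells with the other S genes and with the other mitotic genes (21 genes without Cenpa), as a description. Mcm6 had a rho of 0.64 with the S genes and 0.06 with the mitotic genes, and Mcm3 and Mcm2 had 0.67 and 0.21, and 0.57 and 0.14. At the other end, Cenpa had 0.21 and 0.81, so its cell-to-cell pattern here was mitotic although it was present in every group. Tpx2 had 0.24 and 0.81, Ube2c 0.30 and 0.85 and Birc5 0.38 and 0.88. All 10 S genes were closer to the S list and all 28 G2M genes closer to the mitotic genes. Between the ends stood Rrm1 (0.65 and 0.54), Cdk1 (0.61 and 0.64), Stmn1 (0.52 and 0.57), Top2a (0.57 and 0.65) and Smc2 (0.60 and 0.69). Cdk1, with an E2F site, a CHR element and CCAAT boxes in its window, stood among these. H2afz (0.43 and 0.65) and Hmgb2 (0.51 and 0.79) followed the mitotic genes too, beside their high level in other groups.

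**Figure D4:**
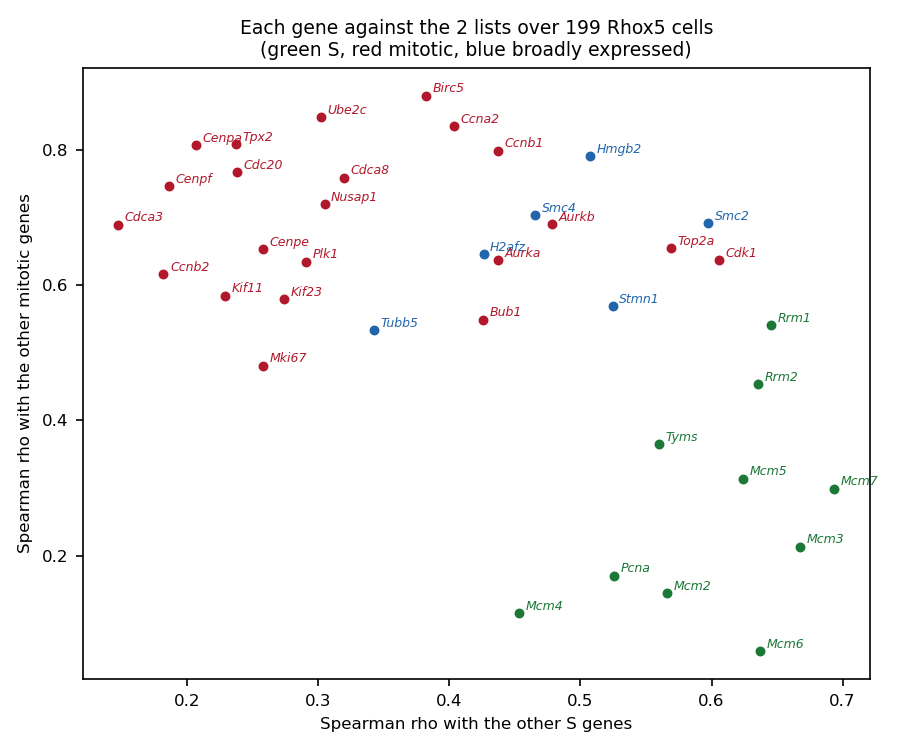
Spearman rho of each of the 38 genes with the other S genes (x) and with the other mitotic genes without Cenpa (y) over 199 Rhox5 cells, colored by list. The S genes (green) lie low and to the right, the mitotic genes (red) high and to the left, and Rrm1, Cdk1, Top2a, Stmn1 and Smc2 between them.

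In T or NK-like cells 20 of 38 members were called higher in TEC than in NEC, 0 lower and 3 neither, and 15 were under 50 UMIs. Over the 4260 genes compared, 22.4% were called higher and 14% lower. Apart from Cenpa, the mitotic genes compared had under 20 UMIs in NEC and reached the minimum with their TEC UMIs. These genes could therefore not be called lower, and the count of members called is a description. The summed lists have no such minimum. The summed S list was 3.37-fold higher (2.94 to 3.87), the 22 mitotic genes 10.1-fold (8.95 to 11.4) and the 21 without Cenpa 25.4-fold (21.04 to 30.9). The TEC cells were 21 cells of cluster 9, led by Tnfrsf4 and Ctla4, 28 of cluster 15, led by granzyme genes, and 2 of cluster 3, while clusters 2 and 3 held 292 and 285 of the 673 NEC cells. The comparison thus sets different clusters against each other. Within cluster 9, with 21 TEC and 90 NEC cells, the S ratio was 3.11 and the mitotic ratio 7.70, and 10 members were called higher. TMM-type scaling moved all ratios of this comparison down by 0.37 on the log2 scale and left 17 members called higher. The shares of all genes called within cluster 9 and after this scaling are not given, so these counts of members are descriptions.

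Birc5 was at 204.7 CPM in TEC and 1.47 CPM in NEC T or NK-like cells (139-fold, 46.5 to 683, from 123 and 3 UMIs). Ccna2 had 53 UMIs in TEC and 0 in NEC. Against a floor of 3 UMIs over the NEC group it was 59.9-fold higher, and the lower limit of its counting interval was 47.03. Cdk1 (93.2 against 1.47 CPM, 63.3-fold), Ube2c (296.2 against 4.91 CPM, 60.3-fold) and Cdca3 (104.8 against 1.96 CPM, 53.4-fold) followed. Ccnb2, Cdca8 and Top2a were 35.3-fold, 21.6-fold and 17.0-fold higher. All of these genes had under 20 UMIs in the 673 NEC cells. Among replication genes, Rrm2 was 14.8-fold (8.92 to 25.8) and Tyms 8.23-fold higher (4.87 to 14.4), while Mcm7, Mcm5, Mcm6 and Mcm2 were 5.0-fold, 4.42-fold, 3.18-fold and 2.29-fold higher. Of the 6 broadly expressed genes, Smc2 was 8.25-fold, Stmn1 8.0-fold, Tubb5 6.88-fold, Hmgb2 3.28-fold and H2afz 2.35-fold higher, as was Cenpa (2.44-fold), and Smc4 was not. Pcna (109.8 against 75.6 CPM), Mcm4 (49.9 against 35.3 CPM) and Smc4 (189.7 against 227.3 CPM) did not meet the rule. Of the genes too low to call, Mki67 had 44 UMIs in TEC and 5 in NEC and Nusap1 39 and 0, while Kif23, a motor of cell division, stood at 18.3 and 17.7 CPM.

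**Figure D5:**
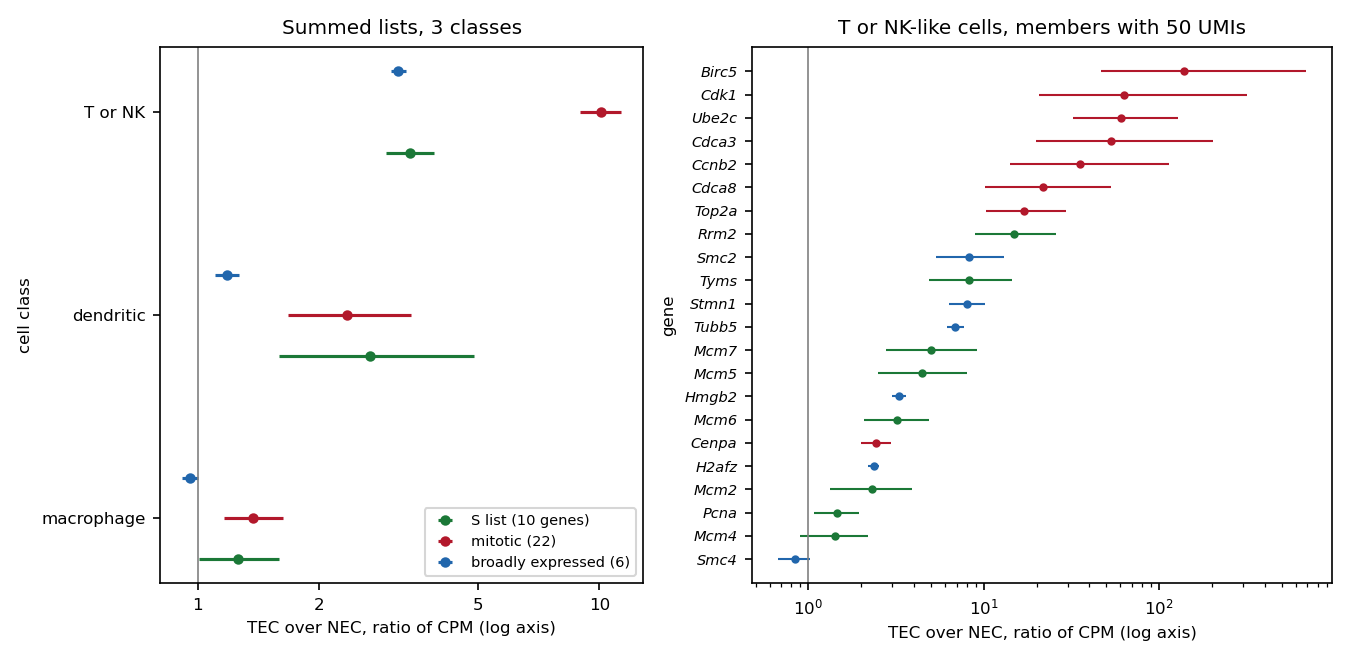
Left, ratio of CPM in TEC over NEC (log axis) of the summed S list, 22 mitotic genes and 6 broadly expressed genes in 3 cell classes; right, the same ratio for each member with 50 UMIs in T or NK-like cells, without Ccna2, which had no UMI in NEC. Bars are 95% counting intervals; the mitotic ratio is 10.1 in T or NK-like cells and 1.38 in macrophages.

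Both T or NK-like clusters of TEC carried the module. Cluster 9 held 957.5 CPM of the S list and 1869 CPM of the 21 mitotic genes, and cluster 15 held 480.9 and 1321 CPM. In NEC, the 90 cells of cluster 9 held 308.1 and 155.8 CPM, above the 35 CPM (cluster 2) and 52.4 CPM (cluster 3) of the 21 genes in the other T or NK-like clusters. Macrophage markers (17 genes) summed to 890.4 CPM in the TEC and 227.3 CPM in the NEC T or NK-like cells, and Rhox5 was at 9.99 CPM in the TEC cells, 1.55% of its level in Rhox5 cells. That share of the Rhox5 cells' mitotic level equals 1.68% of the 21-gene level of the T or NK-like cells. Of the other cell cycle genes, 7 of 37 S genes and 9 of 52 G2M genes were called higher, with 11 and 13 that had enough UMIs, among them Dut (5.76-fold), Tuba1b (10.3-fold) and Cks1b (18.3-fold). Among 12 CDK inhibitor and quiescence genes 3 were called lower and 0 higher, with 8 that had enough UMIs. Klf2, a quiescence factor, was at 224.7 CPM in TEC and 1000 CPM in NEC, and Btg1, an antiproliferative gene, at 910.4 and 2295 CPM. The CDK inhibitor gene Cdkn1a went the other way without meeting the rule, at 154.8 and 89.3 CPM (1.73-fold, 1.33 to 2.24).

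In macrophage or monocyte-like cells few members met the rule, and the libraries shared few clusters: of the TEC cells 265, 180 and 96 were in clusters 4, 6 and 10, and of the NEC cells 97, 92 and 71 in clusters 8, 11 and 14. T or NK markers summed to 603.1 CPM in TEC and 200.6 CPM in NEC and neutrophil markers to 514.6 and 2021 CPM; their part in the result was not tested. Of 38 members 1 was called higher in TEC, 0 lower and 13 neither, and 24 were under 50 UMIs; over the 6602 genes compared 22.9% were called higher and 6.48% lower. The median log2 ratio of the 14 members compared was 0.02, against 0.38 over all genes compared. The summed S list had a ratio of 1.26 (1.01 to 1.60), the 22 mitotic genes 1.38 (1.16 to 1.64) and the G2M list 0.98 (0.94 to 1.03). Top2a was the member called higher, at 10.6 against 3.61 CPM (2.93-fold, 1.08 to 11.2, from 52 and 4 UMIs), and it no longer met the rule with TMM-type scaling. With marker gates in place of clusters 12 members were called higher, and with cells thinned to 1000 UMIs the mitotic ratio was 2.01 and 0 members were called. The shares of all genes called under these settings are not given, so the counts are descriptions. Without Pcna the S list was 2.19-fold higher (1.51 to 3.28), from 301 and 31 UMIs, since Pcna held 61 of the 92 S UMIs in NEC and stood at 43.6 CPM in TEC and 55.1 CPM in NEC. H2afz was at 1200 and 1468 CPM and Tubb5 at 340.6 and 357.0 CPM.

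Macrophages of TEC that held Cd3 UMIs had higher sums than those without, and the mitotic difference turned with the clustering. With the groups as built, the S list was 2.16-fold (1.78 to 2.60) and the 22 mitotic genes 2.56-fold higher (2.25 to 2.92). Of the members 5 were called higher, 0 lower and 6 neither, and 27 were under 50 UMIs; over the 6077 genes compared 3.93% were called higher and 2.42% lower. Top2a was at 33.1 against 5.50 CPM (6.02-fold), Ube2c at 46.4 against 8.00 CPM (5.80-fold), Birc5 at 30.9 against 8.26 CPM (3.75-fold), Smc2 at 29.8 against 7.25 CPM (4.11-fold) and Smc4 at 64.1 against 22.01 CPM (2.91-fold). Pcna (0.98), H2afz (0.94) and Cenpa (1.14) were near a ratio of 1. In 3 other clusterings the cell cycle genes were kept, the resolution was 0.4, or Scrublet's doublet calls were kept. In these, 35, 40 and 36 of the 87 cells were placed with the T or NK-like cells. The macrophage groups so formed had 52, 50 and 51 cells with Cd3 and 504, 512 and 502 without. The mitotic ratio between them was 0.72, 0.69 and 0.82, with 0 members called higher. Those of the 87 cells that stayed macrophages held 199.6, 181.9 and 180.5 CPM of the S list. This was still above the 86.6 CPM of the 488 macrophages without Cd3.

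The cells that changed class held most of the mitotic UMIs. At resolution 0.4, which left the cell cycle genes out, the 40 cells placed with T or NK-like cells had 249 UMIs of the 21 genes, or 568.5 CPM (500.1 to 643.7), and the 47 others 28 UMIs, or 59.9 CPM (39.8 to 86.6). With the cell cycle genes kept, these genes helped to place the cells, so the values are a description: the 35 cells placed with T or NK-like cells had 246 UMIs of the 21 genes, or 624.1 CPM (548.5 to 707.1). The 52 others had 31 UMIs, or 60.7 CPM (41.2 to 86.1), against 73.0 CPM in macrophages without Cd3. The 35 cells had a median of 10 Cd3 UMIs, 3787 CPM of T or NK markers (14 genes) and 10185 CPM of macrophage markers; the 52 had a median of 3 Cd3 UMIs, 1184 CPM and 13796 CPM. TEC T or NK-like cells held 4264 and 890.4 CPM of these markers and macrophages without Cd3 held 214.9 and 17796 CPM. In the S list the cells did not part this way: it was at 170.0 CPM (131.7 to 215.9) in the 35 and 199.6 CPM (162.7 to 242.3) in the 52.

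A few cells held most of these UMIs. Of the 277 UMIs of the 21 genes in the 87 cells, 238 were in 9 cells, which held 7 to 36 Cd3 UMIs each and had a median of 16921 UMIs in all. The cells with 2 or more Cd3 UMIs (66) had a mitotic ratio of 3.08 (2.70 to 3.52), and those with exactly 1 (21) of 0.66 (0.40 to 1.03). Most of the 87 cells (65) were in cluster 4, where the ratio was 2.58 (2.20 to 3.02); in cluster 6 (7 cells) it was 1.14 and in cluster 10 (14 cells) 0.80. What 2 cells in 1 droplet contribute was not tested. In macrophages without Cd3 the 49 of 488 cells with the most UMIs of the 21 genes held 73.6% of them, and 11 of the 49 had 5 or more. These cells were picked by the same UMIs, which are sparse there.

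Dendritic-like cells held more S and mitotic transcripts in TEC than in NEC, from few UMIs. The S list was 2.69-fold (1.59 to 4.88; 222 and 15 UMIs) and the 22 mitotic genes 2.36-fold higher (1.68 to 3.41; 467 and 36 UMIs). The members called higher were Stmn1 (48.7 against 15.1 CPM) and Hmgb2 (458.4 against 215.4 CPM), 2 of 38, with 0 lower, 5 neither and 31 under 50 UMIs; over the 3330 genes compared 19.8% were called higher and 4.35% lower. Birc5 had 43 UMIs in TEC and 0 in NEC, Cdca3 26 and 0, Top2a 23 and 0 and Tyms 30 and 2. Of the 38 members 37 had a ratio above 1, counting genes with 0 UMIs in NEC, and Mki67 went the other way. This count is a description, since the 21 mitotic genes without Cenpa had 252 UMIs in TEC and only 9 in NEC. The median log2 ratio was 0.95 over the 7 members compared and 0.41 over all genes compared. Unthinned, Mki67 was seen in 7 of 155 TEC cells (4.52%, 1.83 to 9.08) and 6 of 54 NEC cells (11.1%, 4.19 to 22.6). These intervals overlap. T or NK markers summed to 966.2 CPM in the TEC and 158.7 CPM in the NEC dendritic-like cells, and macrophage markers to 2712 and 1001 CPM; their part in the result was not tested. With per-cell marker gates in place of clusters the ratios turned to 0.70 for S and 0.76 for mitotic genes, and 198 of the 259 NEC cells so gated were in B or plasma-like clusters. Without the 5% of cells richest in the list the mitotic ratio was 1.66.

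Within TEC, dendritic-like and T or NK-like cells were also set against the macrophages without Cd3. In dendritic-like cells 7 members were called higher, 0 lower and 5 neither, with 26 under 50 UMIs, and over 6368 genes 7.22% were called higher and 12.6% lower. H2afz (2984 against 1214 CPM), Tubb5 (675.9 against 295.2 CPM), Tyms (20.6 against 5.50 CPM), Birc5 (29.5 against 8.26 CPM), Cdca3, Ube2c and Smc2 were these 7. In T or NK-like cells 23 were called higher, 0 lower and 1 neither (H2afz, 1.93), with 14 under 50 UMIs, and over 6000 genes 14.2% were called higher and 23.4% lower. The 21 mitotic genes without Cenpa had 929 UMIs there and 292 in the macrophages, so those that reached the minimum did so with their T or NK-like UMIs. Ube2c (37.0-fold), Cdk1 (31.0-fold) and Rrm2 (30.7-fold) had the largest ratios among members with 50 UMIs; below that minimum Nusap1 had 39 and 3 UMIs and Cenpf 33 and 6. All 3 comparisons use the same macrophages. Mitotic UMIs in TEC dendritic-like cells were again concentrated: 16 of the 155 cells held 83.3% of those of the 21 genes.

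Shares of cells were compared after each cell was thinned to 1000 UMIs. At least 1 UMI of the 21 mitotic genes was seen in 51.8% of Rhox5 cells (44.6 to 58.9) and 47.1% of TEC T or NK-like cells (32.9 to 61.5). The shares were 12.6% (6.48 to 21.5) in TEC macrophages with Cd3, 7.74% (4.06 to 13.1) in dendritic-like cells and 4.10% (2.52 to 6.26) in macrophages without Cd3. In NEC they were 4.61% (3.15 to 6.47) in T or NK-like, 9.26% (3.08 to 20.3) in dendritic-like and 2.45% (0.99 to 4.98) in macrophage or monocyte-like cells. B or plasma-like cells of NEC gave 2.82% (1.71 to 4.37) at a median of 1750 UMIs before thinning. The TEC and NEC dendritic-like shares overlap, so a larger share of cells in TEC was not detectable. Unthinned, the shares were 95.5% in Rhox5 cells and 78.4%, 46.0%, 37.4% and 25.8% in the other TEC groups in the order above, at their greater depths.

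TEC cells thinned to 6000 UMIs separate strong from weak carriers. At least 5 UMIs of the 21 genes were held by 56.8% of Rhox5 cells (49.6 to 63.8), 49.0% of T or NK-like cells (34.8 to 63.4), 8.05% of macrophages with Cd3 (3.30 to 15.9), 3.23% of dendritic-like cells (1.06 to 7.37) and 2.05% of macrophages without Cd3 (0.99 to 3.74). At least 20 UMIs were held by 26 of 199 Rhox5 cells, 8 of 51 T or NK-like cells, 2 of 87 macrophages with Cd3, 0 of 155 dendritic-like cells and 0 of 488 macrophages without Cd3, which allows up to 1.94% and 0.61% of cells with that many UMIs at this depth (3 cells of each group). At least 1 UMI was held by 19.7% of macrophages without Cd3 (median 7394 UMIs before thinning) and by 4 of 33 cells, 12.1% (3.40 to 28.2), of the TEC monocytes of cluster 8, led by Ace and Treml4 (median 7536 UMIs). These intervals overlap, and 32 of the 33 monocytes are themselves among the macrophages without Cd3. Rhox5 itself was at 7.76 CPM in the macrophages without Cd3, 1.2% of its level in Rhox5 cells, and that share of the Rhox5 cells' 21-gene level equals 27.6% of the level in these macrophages.

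Mki67 and Top2a alone gave different pictures of the Rhox5 cells. After thinning to 1000 UMIs, 1 of 199 Rhox5 cells had a Mki67 UMI (0.50%, 0.013 to 2.77) and 27 had a Top2a UMI (13.6%, 9.14 to 19.1). Of the 51 TEC T or NK-like cells, 5 had a Mki67 UMI (9.80%, 3.26 to 21.4) and 8 a Top2a UMI (15.7%, 7.02 to 28.6). Of the 673 NEC T or NK-like cells, 0 had a Mki67 UMI and 4 a Top2a UMI after thinning. At 6000 UMIs, Mki67 was seen in 15 Rhox5 cells (7.54%) and 14 T or NK-like cells (27.5%), and Top2a in 76 (38.2%) and 21 (41.2%). Unthinned, Mki67 was seen in 30.7% of Rhox5, 43.1% of TEC T or NK-like and 3 of 673 NEC T or NK-like cells, and Top2a in 58.8%, 54.9% and 2.38%.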

How the data were processed

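Single-cell libraries were made with the 10x Genomics 3' kit, 1 per group. The authors deposited 1 table of UMI counts per gene and cell; the submitters' processing notes name the build mm10, Seurat, STAR 2.5.1b and Cell Ranger 2.0.2, with no role given. Columns beginning with control were taken as NEC and those beginning with tumor as TEC, from the labels' words. The table held 5228289 UMIs in 1806 NEC cells and 16444540 UMIs in 1000 TEC cells.

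Cells below 500 genes or 1000 UMIs, or above 10% mitochondrial UMIs, were removed (5 NEC cells), and Scrublet's doublet calls (7 NEC, 3 TEC) were dropped, leaving 1794 and 997 cells. Leiden clustering at resolution 0.8 (2000 variable genes, 30 components, 15 neighbors; scanpy 1.11.5, Python 3.11.15) left out the 38 members and the other listed cell cycle genes. A class needed 3 markers, each in at least 10% of cells, at 50 CPM or more and 2-fold above other cells; this scoring rule and its tie-break were settled after the clusters were seen. Trac, Trbc1 and Trbc2 were not used. UMIs were summed per group. CPM intervals are exact Poisson, ratios exact Clopper-Pearson given the gene's total, and shares exact Clopper-Pearson, all at 95%; a count of 0 is given the limit of 3 counts instead. Genes with 50 UMIs over both groups were compared, and the script was tested on simulated data. Named genes are the members, with all 38 accounted for, and genes of the other lists. The members and lists were chosen with earlier results of these data known. Alternatives covered clustering, gates, scaling, thinning, depth, UMI minimum and list content.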

Additional observations from a re-analysis of the deposited data

How the results depend on the processing

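No paired analysis was possible because each group has 1 library, and leaving out a replicate was impossible for the same reason. Of the values recomputed under the alternatives, 319 kept their direction and call, 45 moved, 16 were weaker, 6 stronger and 9 reversed. The share of all genes called is not given for the alternatives, so their counts of members called are descriptions. Dropping Pcna from the S list, dropping Cenpa, the cuts by number of Cd3 UMIs and the single-cluster values were chosen after seeing the data.

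Macrophages, TEC over NEC: the 1 member called higher became 0 with cell cycle genes kept for clustering, resolution 0.4 (where 1 was lower), Scrublet calls kept, cells under 4000 UMIs left out, TMM-type scaling or thinning, 2 with the mean of cells, 12 with marker gates, and 5 with a minimum of 20 or 1 UMIs. The S ratio was 2.19 without Pcna and the mitotic ratio 2.01 thinned. T or NK-like cells: 20 members called became 4 thinned, 33 at a minimum of 1 UMI and 10 in clusters with 20 cells of each library. Dendritic-like cells: 2 members became 1 with Scrublet calls kept, TMM-type scaling or thinning, and 5 at a minimum of 20 or 1. S was 0.70 with gates and 2.09 thinned, the G2M ratio 2.36 without the 6 broadly expressed genes, and the mitotic ratio 0.76 with gates, 1.86 with the mean of cells, 1.63 thinned and 1.66 without the richest 5% of cells.

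Rhox5 cells against macrophages without Cd3: 34 members became 1 thinned, and the G2M ratio was 1.86 with gates, 1.85 with TMM-type scaling and 1.99 thinned. T or NK-like against the same macrophages: 23 members became 3 thinned and 37 at a minimum of 1. Dendritic-like against them: 7 members became 2 with gates, 3 thinned, 15 at a minimum of 20 and 17 at 1; S was 2.65 without Pcna and 2.04 at resolution 0.4; G2M was 1.58 with gates; mitotic was 0.65 with gates, 1.79 with the mean of cells and 1.78 without the richest 5%.

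Macrophages with against without Cd3: 5 members became 0 with cell cycle genes kept, resolution 0.4 or Scrublet calls kept, 20 with gates, 1 thinned, 19 at a minimum of 20 and 25 at 1. S was 1.89 with the mean of cells, 1.79 without the richest 5%, 0.77 at exactly 1 Cd3 UMI, 1.88 in cluster 4 and 1.37 in cluster 10. G2M was 2.56 without the 6 genes. Mitotic was 0.72, 0.69 and 0.82 under the 3 other clusterings, 1.65 without the richest 5%, 0.66 at 1 Cd3 UMI, 1.14 in cluster 6 and 0.80 in cluster 10.

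The share of cells with a UMI of the 21 genes rose with depth: thinned to 1000 UMIs, to 6000 and as deposited it was 51.8%, 82.9% and 95.5% in Rhox5 cells, 47.1%, 72.5% and 78.4% in T or NK-like, 7.74%, 29.0% and 37.4% in dendritic-like, 12.6%, 35.6% and 46.0% in macrophages with Cd3 and 4.10%, 19.7% and 25.8% without; at 1000 and as deposited it was 4.61% and 12.2% in NEC T or NK-like cells and 2.53% and 9.75% in NEC macrophages without Cd3. Thinned counts fall by construction, since fewer genes reach 50 UMIs; for the other changes the cause was not tested. Low NEC depth limits the mitotic genes there.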

Other observations

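Of the labelled cell type, the 6 TEC endothelial-like cells held 432 CPM of the S list from 34 UMIs, 76.5% of them in 1 cell. In the 27 NEC B or plasma-like cells of cluster 17 the 21 mitotic genes had no UMI, while the 22 genes with Cenpa stood at 230.5 CPM. Among TEC macrophages without Cd3 UMIs the 22 mitotic genes were at 180.5 CPM in cluster 4, led by Ccl8 and C1q genes, 163.3 CPM in cluster 10, led by interferon-induced genes, and 118.3 CPM in cluster 6, led by Arg1. Among macrophages without Cd3, 10 cells with a UMI of Nkg7, a cytotoxic granule gene, had a mitotic ratio of 2.91 (1.98 to 4.13) to the 478 without it; this comparison was chosen after the data were seen.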
